A study of Mus musculus with 12 samples.

Results

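Branched-chain amino acid breakdown was followed through 10 genes: Bcat2, Bckdha, Bckdhb, Dbt, Ivd, Mccc1, Mccc2, Hibadh, Acadsb and Klf15. They were taken by gene symbol from the 56162 features of the deposited count and FPKM tables. Each symbol had 1 row.

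The libraries were made from isolated muscle fibres of C57BL/6J males and fall into 4 groups, each with 3 libraries. Trained type I fibres were from the soleus of mice given treadmill running of 60 min at 12 to 16 m/min on 5 days of each week over 6 weeks, and taken 3 days after the final run. Untrained type I fibres were from the soleus of control mice. Trained and untrained type IIb fibres were from a fast muscle, the extensor digitorum longus (EDL), of mice under the same 2 regimes. All 4 groups are labelled as 8 weeks old. Whether this was before or after training is not stated there. Collagenase (2 mg/ml, 37 °C) freed the fibres, over 90 min for soleus and 60 min for EDL, so fibre type, muscle and digestion time cannot be told apart. Each fibre was cut, and its type was read from the myosin heavy chain protein in one piece while the remainder was lysed. How many fibres went into a library is not stated in the labels. Nothing in the labels says that the 3 libraries of a group came from separate animals, so a p-value here speaks of the spread among these libraries alone, which may be technical.

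Leucine, isoleucine and valine begin their breakdown in skeletal muscle more than in liver. A mitochondrial transaminase first moves the amino group onto ketoglutarate. The branched-chain ketoacid dehydrogenase complex then commits the carbon skeletons to oxidation, after which each amino acid follows its own branch. KLF15, a zinc-finger transcription factor, is known in mouse muscle and heart as an activator of this pathway.

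Library totals ran between 8026397 and 24995288 counts. Between 3636 and 14428 genes had at least 10 counts, with the fewest in untrained type IIb library 1. The summed fibre-type markers separated the libraries as labelled. Summed type I markers were at 46330 to 84440 CPM (counts scaled to the library total) in the 6 type I libraries and 1.16 to 47.5 CPM in the 6 type IIb libraries. Summed type IIb markers were at 1272 to 9361 CPM in type I and 136200 to 222500 CPM in type IIb. Of those 8 type IIb markers, Tnnc2, fast troponin C, was at or near 0 in every group, with means of 0 and 0.0284 CPM in trained and untrained type I and 0 and 0.0739 CPM in trained and untrained type IIb, and the other 7 averaged higher in both type IIb groups. The 12 endothelial markers summed to 1.86 to 39.5 CPM in trained type I, 17.1 to 747 CPM in untrained type I, 0.316 to 156 CPM in trained type IIb and 0 in untrained type IIb libraries. Fibroblast markers summed to 25.8 to 138 CPM in trained type I, 27.3 to 10520 CPM in untrained type I, 0.527 to 305 CPM in trained type IIb and 0.206 to 10.6 CPM in untrained type IIb libraries.

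The members were expressed at low to moderate levels. Outside untrained type I most varied widely between libraries of one group, as genes in general did. None passed edgeR's quasi-likelihood test in any of the 7 comparisons of training, fibre type and their interaction. Over all genes tested, 0% to 1.93% passed, depending on the comparison. Of the 10 members, 9 passed the filter on low counts, among 11747 genes tested, and Bckdha did not. By mean FPKM (counts scaled by the authors to gene length and library total) over all 12 libraries, Ivd was highest at 80.9 ± 63.2 (SD, n = 12). Acadsb followed at 55.8, Bckdhb at 45.6, Hibadh at 45.5, Dbt at 44.8, Mccc2 at 31.3, Mccc1 at 21.1, Bcat2 at 18.9, Klf15 at 15.9 and Bckdha at 0.0131 FPKM. Every step down this order from Ivd to Klf15 was smaller than the SD of either neighbour.

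**Figure D1:**
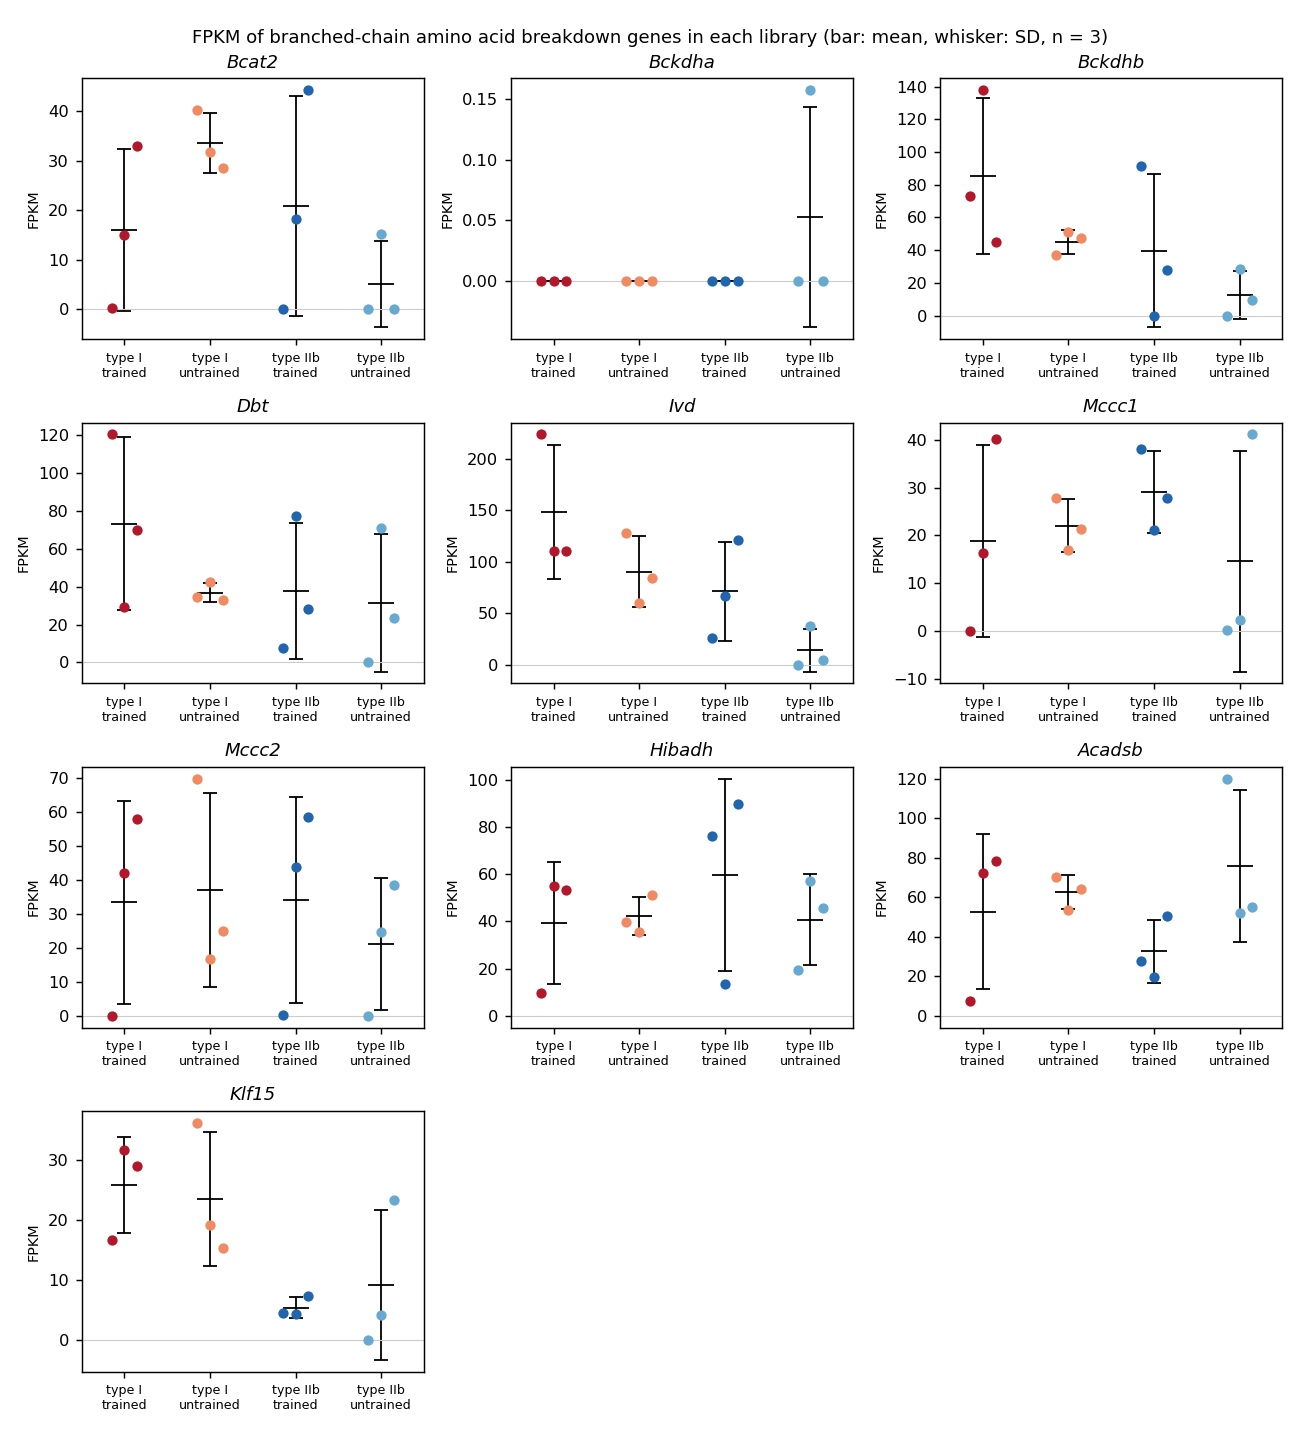
FPKM of the 10 members in each library, 1 panel a gene, with the 4 groups on the x axis, 1 point a library, a bar at the mean and whiskers of 1 SD (n = 3). Most panels show a library at or near 0 beside much higher libraries of the same group, and Ivd reaches 223.7 FPKM.

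Bcat2 (chr7:45570153-45589711, plus strand, mm10) encodes the mitochondrial branched-chain aminotransferase, the entry step. It was at 0.300, 14.9 and 32.9 FPKM in trained type I and at 40.3, 31.8 and 28.6 FPKM in untrained type I libraries. It was at 0, 18.3 and 44.3 FPKM in trained type IIb and at 0, 15.2 and 0 FPKM in untrained type IIb libraries. Untrained type I was the only group without a low library, and its lowest value lay above every untrained type IIb value. The 3 libraries at 0 allow levels of up to 0.181 to 0.230 FPKM, taking 3 counts as the limit. The fitted log2 difference between untrained type I and untrained type IIb fibres was 2.13 ± 2.44 (SE), with an adjusted p of 0.885 by edgeR. The training difference came to -1.002 ± 2.36 for type I fibres and 2.10 ± 2.44 for type IIb fibres. The interaction, the type I training difference minus the type IIb one, was -3.10 ± 3.38 (adjusted p = 1.00 by edgeR). Single libraries decided these estimates. Without untrained type IIb library 2 that group is at 0 throughout, and the fit gave 11.96 for untrained fibre type, 11.93 for training in type IIb and -12.93 for the interaction, fitted values that are no measure of size. The type IIb training difference was 1.19 without trained type IIb library 3. The type I one was -0.43 without trained type I library 1 and -1.53 without trained type I library 3. Of the exon sequence, 15.9% overlaps the antisense gene 0610005C13Rik, which had 35 counts over all 12 libraries. The library kit does not mark strand, so reads of the 2 genes cannot be told apart there. Bcat1, the cytosolic aminotransferase, named here outside the naming rule and after its values were seen, had at most 33 counts in a library and did not pass the filter.

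The ketoacid dehydrogenase complex is built of a decarboxylase encoded by Bckdha and Bckdhb, a transacylase core encoded by Dbt and a dihydrolipoamide dehydrogenase encoded by Dld. Bckdha (chr7:25629946-25658981, minus strand) had 0 counts in 11 libraries and 3 counts, or 0.157 FPKM, in untrained type IIb library 2. At 3 counts a library, the values of 0 allow up to 0.0906 to 0.282 FPKM, which covers counting error only. On this strandless kit, 61.7% of its annotated exon sequence is shared with B3gnt8 on the other strand, and B3gnt8 had 51 counts over all 12 libraries. How the authors' counting treated reads in that overlap is not given in the sources used here, and its part in the low values was not tested.

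Bckdhb (chr9:83925145-84124240, plus strand) was at 72.8, 137.7 and 44.7 FPKM in trained type I and at 37.0, 51.1 and 47.3 FPKM in untrained type I libraries. It was at 91.5, 0 and 27.8 FPKM in trained type IIb and at 0, 28.4 and 9.40 FPKM in untrained type IIb libraries. Both type I groups were free of zeros, both type IIb groups held one, and all 3 untrained type I values exceeded the untrained type IIb ones. The log2 difference between type I and type IIb averaged over training was 1.13 ± 1.30 (SE), with an adjusted p of 0.815 by edgeR. In untrained fibres alone it was 1.28 ± 1.85. The training difference was 1.41 ± 1.86 in type I fibres, 1.72 ± 1.87 in type IIb fibres and 1.56 ± 1.32 averaged over both (adjusted p of 0.940 and above by edgeR). The type IIb training estimate was 0.09 without trained type IIb library 1, 1.13 without untrained type IIb library 1, 3.18 without untrained type IIb library 2 and -0.56 without the first 2 of these, the libraries with the fewest genes. With all libraries kept, limma-voom with quality weights gave -3.26, so the direction of this estimate was not settled. The averaged training difference was 0.75 without trained type IIb library 1, and the type I one was 0.72 without trained type I library 2. The averaged fibre-type difference was 1.95 without trained type IIb library 1 and 1.87 without untrained type IIb library 2. In untrained fibres it was 0.71 without untrained type IIb library 1 and 2.76 without untrained type IIb library 2.

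Dbt (chr3:116513070-116549981, plus strand) was at 120.2, 29.4 and 70.0 FPKM in trained type I and at 34.7, 42.5 and 33.0 FPKM in untrained type I libraries. It was at 7.83, 77.5 and 27.9 FPKM in trained type IIb and at 0, 71.1 and 23.3 FPKM in untrained type IIb libraries. Every pair of groups overlapped, with the narrowest range in untrained type I. The training difference in type I was 1.37 ± 1.58 in log2 (adjusted p = 1.00 by edgeR) and 0.44 without trained type I library 1, and the other Dbt differences were below 1.

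Within single libraries the subunits of one complex could be far apart. The FPKM ratio of Bckdhb to Dbt was between 0.399 and 11.7 in the 10 libraries where both were detected above 0, with a median of 1.03. Trained type IIb library 2 had 0 counts of Bckdhb beside 745 of Dbt, and trained type IIb library 1 had 859 counts of Bckdhb beside 89 of Dbt. The 2 subunits were thus at like levels in some libraries, while in others one of them had nearly all the reads.

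**Figure D2:**
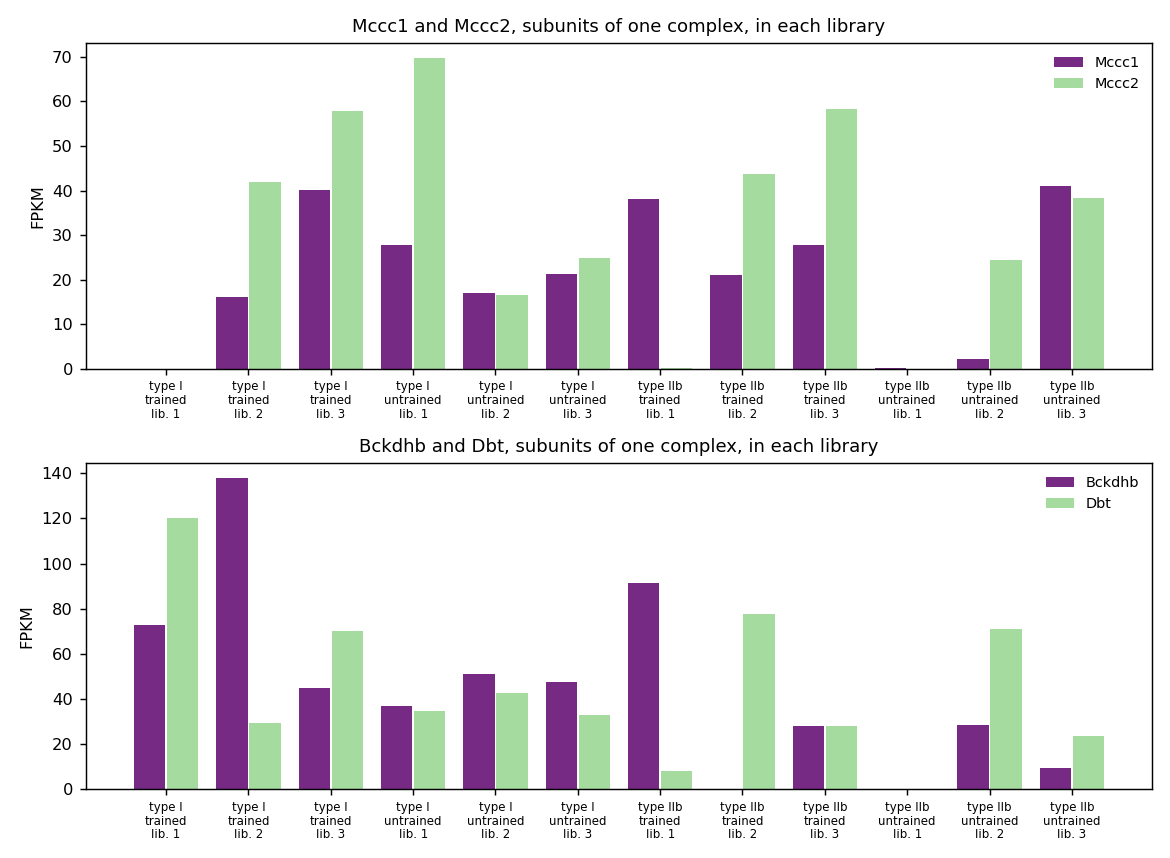
FPKM (y axis, linear, from 0) of Mccc1 and Mccc2 in the upper panel and of Bckdhb and Dbt in the lower panel, 1 pair of bars for each of the 12 libraries (x axis). Bckdhb is missing in trained type IIb library 2 and Mccc2 is near 0 in trained type IIb library 1, beside a partner at 77.5 and 38.1 FPKM.

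In the leucine branch, Ivd (chr2:118861954-118882909, plus strand) encodes isovaleryl-CoA dehydrogenase, a flavoprotein that passes electrons to the respiratory chain. It was at 223.7, 110.1 and 110.6 FPKM in trained type I and at 127.8, 59.5 and 84.0 FPKM in untrained type I libraries. It was at 26.0, 66.2 and 121.4 FPKM in trained type IIb and at 0, 37.9 and 4.06 FPKM in untrained type IIb libraries. The group means stood in that order, at 148 ± 65.5 FPKM in trained type I, 90.4 ± 34.6 in untrained type I, 71.2 ± 47.9 in trained type IIb and 13.99 ± 20.8 in untrained type IIb (SD, n = 3 each). The 2 untrained groups did not overlap, whereas trained and untrained libraries overlapped within each fibre type. Averaged over fibre type, the training difference was 1.83 ± 0.98 in log2 (SE), with an unadjusted p of 0.0781 and an adjusted p of 1.00 by edgeR. It came to 1.22 ± 1.36 for type I fibres and 2.44 ± 1.42 for type IIb fibres (adjusted p = 1.00 and 0.668 by edgeR), and the interaction was -1.22 ± 1.91. The fibre-type difference was 2.06 ± 1.40 in untrained fibres (adjusted p = 0.595 by edgeR) and 1.45 ± 0.97 averaged over training (adjusted p = 0.533 by edgeR). Without untrained type IIb library 2 the Ivd estimates were 5.27 for training in type IIb, 3.25 for averaged training, 4.89 for untrained fibre type, 2.87 for averaged fibre type and -4.05 for the interaction. Without trained type I library 1 the type I training difference was 0.57, and over all single libraries left out the interaction ran between -4.05 and -0.63. Of all 63 member differences, the averaged training difference in Ivd had the lowest unadjusted p.

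Mccc1 (chr3:35959312-36000678, minus strand) and Mccc2 (chr13:99948530-100015639, minus strand) encode the biotin-carrying and the transferase subunits of methylcrotonyl-CoA carboxylase, further along the leucine branch. Mccc1 was at 0.0483, 16.2 and 40.1 FPKM in trained type I and at 27.8, 16.9 and 21.3 FPKM in untrained type I libraries. It was at 38.1, 21.1 and 27.9 FPKM in trained type IIb and at 0.193, 2.27 and 41.1 FPKM in untrained type IIb libraries. Every pair of groups compared overlapped. Mccc1 differences of 1 or more in log2 were -1.29 ± 1.71 between trained type I and trained type IIb, 1.16 ± 1.71 for training in type IIb and -1.32 ± 2.39 for the interaction (adjusted p of 0.974 and above by edgeR). Without untrained type IIb library 3 the Mccc1 training difference in type IIb was 4.66 and the interaction -4.82. Without untrained type IIb library 1 they were 0.58 and -0.74, without untrained type IIb library 2 they were 0.65 and -0.82, and without trained type I library 1 the trained fibre-type difference was -0.70 and the interaction -0.74.

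Mccc2 was at 0, 42.0 and 57.9 FPKM in trained type I and at 69.7, 16.6 and 24.8 FPKM in untrained type I libraries. It was at 0.205, 43.8 and 58.3 FPKM in trained type IIb and at 0, 24.5 and 38.3 FPKM in untrained type IIb libraries. Its highest value was in an untrained type I library, a trained type I and an untrained type IIb library were both at 0, and none of its differences reached 1 in log2. The FPKM ratio of Mccc1 to Mccc2 was between 0.0926 and 1.07 in 9 libraries, with a median of 0.482. Trained type IIb library 1 was unlike these, with 772 counts of Mccc1 and 2 of Mccc2, and trained type I library 1 had 1 and 0 counts.

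In the valine branch, Hibadh (chr6:52546228-52640389, minus strand) encodes hydroxyisobutyrate dehydrogenase. It was at 9.52, 54.9 and 53.5 FPKM in trained type I and at 39.6, 35.6 and 51.3 FPKM in untrained type I libraries. It was at 76.0, 13.3 and 89.8 FPKM in trained type IIb and at 19.4, 57.3 and 45.5 FPKM in untrained type IIb libraries. All 4 groups overlapped and no Hibadh difference reached 1 in log2. Hibadh and Acadsb were the 2 members with at least 10 counts in all 12 libraries.

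In the isoleucine branch, Acadsb (chr7:131410601-131448944, plus strand) encodes the short/branched-chain acyl-CoA dehydrogenase. It was at 7.44, 72.3 and 78.1 FPKM in trained type I and at 70.2, 53.4 and 64.0 FPKM in untrained type I libraries. It was at 27.7, 19.4 and 50.5 FPKM in trained type IIb and at 120.0, 51.8 and 55.1 FPKM in untrained type IIb libraries. All trained type IIb values lay below all untrained type IIb values, the nearest being 50.5 against 51.8 FPKM. The training difference in type IIb was -1.07 ± 0.89 in log2 (SE), with an adjusted p of 0.869 by edgeR. The interaction was 1.08 ± 1.25 (adjusted p = 1.00 by edgeR). Without untrained type IIb library 1 the training difference was -0.63 and the interaction 0.64, and without trained type I library 2 the interaction was 0.35.

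Klf15 (chr6:90462576-90475238, plus strand), the regulator, was at 16.6, 31.6 and 28.9 FPKM in trained type I and at 36.1, 19.1 and 15.3 FPKM in untrained type I libraries. It was at 4.54, 4.30 and 7.33 FPKM in trained type IIb and at 0, 4.06 and 23.3 FPKM in untrained type IIb libraries. In trained mice every type I value exceeded every type IIb value, with means of 25.7 ± 7.97 and 5.39 ± 1.68 FPKM (SD, n = 3 each). In untrained mice the groups overlapped through untrained type IIb library 3. The log2 difference between type I and type IIb was 1.92 ± 1.78 in trained fibres (adjusted p = 0.925 by edgeR) and 1.36 ± 1.24 averaged over training (adjusted p = 0.712 by edgeR). The interaction was 1.11 ± 2.44 (adjusted p = 1.00 by edgeR) and turned to -0.99 without untrained type IIb library 3, where the averaged difference was 2.42. The interaction was 0.71 without trained type I library 2 and 1.70 without untrained type IIb library 1. In untrained fibres and for training in either fibre type, the Klf15 difference was below 1.

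For training, edgeR called 0 of the 9 members at an adjusted p under 0.05 in type I fibres and 0 in type IIb fibres, and 0% of all genes in both. At an unadjusted p under 0.05 there were again 0 members in each, against 345 genes in type I (2.94%) and 965 in type IIb (8.21%). DESeq2 and limma-voom with quality weights also called 0 members in both, and called 47 and 10 genes in type I and 327 and 1 in type IIb. In type I fibres 7 members had a positive and 2 a negative estimate, and their median was 0.21 in log2, beside -0.28 over all genes tested. In type IIb fibres 7 were again positive and 2 negative, with a median of 0.86 beside 0.36 over all genes. A difference of 1 or more was estimated upward for 3 members in type I and 4 in type IIb fibres, where 16.3% and 37.7% of all genes had one. It was estimated downward for 1 member in each, where 34.5% and 20.7% of all genes had one. In type I fibres the trained and untrained values of every member tested overlapped, whereas 2.53% of genes were separated upward and 8.2% downward. Acadsb in type IIb was the 1 member whose trained and untrained values did not overlap, and 2.38% of genes had such a separation downward.

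For fibre type, 0 members were called in trained fibres, where 63 genes were called (0.536%), and 0 in untrained fibres, where 54 were (0.46%). Averaged over training, 0 members were called and 227 genes were (1.93%). At an unadjusted p under 0.05, 0 members passed in any of these, against 8.03%, 17.5% and 16.9% of genes. DESeq2 called 0 members in all 3. Limma-voom with quality weights called 1 of 9 members, Bcat2 in untrained fibres, at a log2 difference of 6.95 and an adjusted p of 0.0402. It called 1859 of the 11747 genes tested there, and Bcat2 was at 0 in untrained type IIb libraries 1 and 3. The members' median was 0.28 in trained fibres beside 0.21 over all genes, and 0.19 in untrained fibres beside 0.85 over all genes. The values of Bcat2, Bckdhb and Ivd did not overlap between untrained type I and untrained type IIb fibres, and 30.1% of all genes tested were separated in this direction. Klf15 did not overlap between the trained groups and was higher in type I, a separation in that direction that 9.07% of genes showed. When counts were scaled by TMM factors (edgeR's composition correction) in place of library totals, Bckdhb overlapped in untrained fibres, and Acadsb in untrained and Mccc1 in trained fibres were separated, each lower in type I. On that scale 4.89% of genes were separated downward in untrained and 3.76% in trained fibres.

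The interaction and the training difference averaged over fibre type called 0 members and 0% of genes by edgeR. At an unadjusted p under 0.05 they gave 0 members, against 1050 genes (8.94%) and 449 genes (3.82%). DESeq2 called 0 members in both, with 354 and 203 genes. The members' median interaction was -0.42 beside -0.68 over all genes, and their median averaged training difference was 0.50 beside 0.15.

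**Figure D3:**
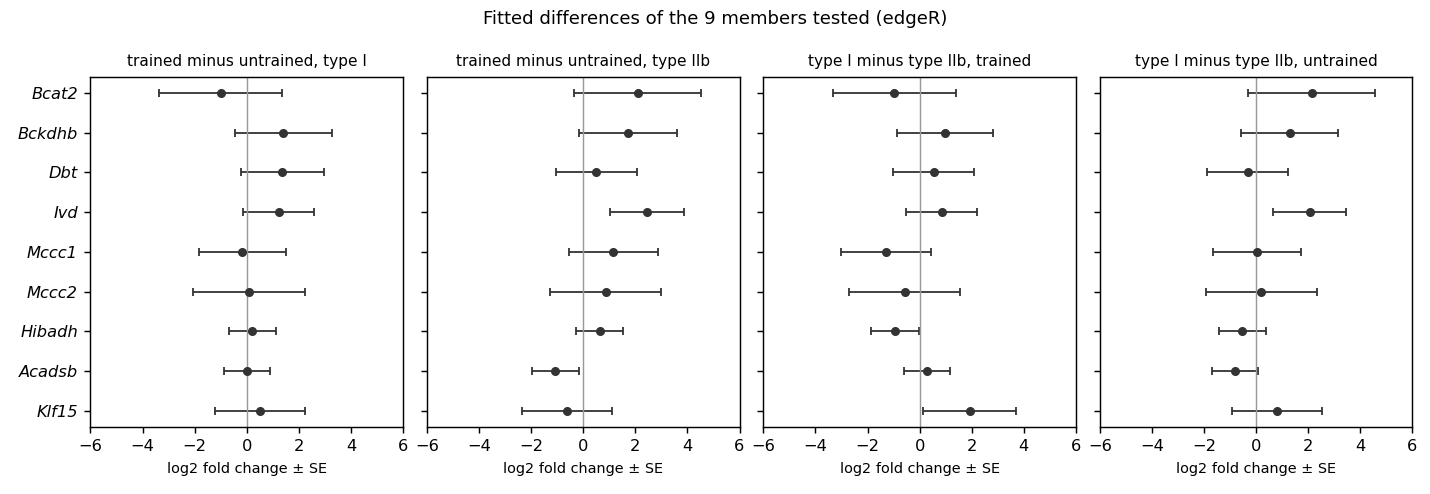
Log2 fold change (x axis, points) with its SE (whiskers) from edgeR for the 9 members tested, in 4 comparisons given above the panels. The whiskers of most members cross 0, and the estimates furthest from 0 are those of Ivd and Bcat2 for training in type IIb and between untrained fibre types.

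Many member values were at or near 0. Of all of them, 21 were at 0, with 7 in type I and 14 in type IIb libraries, and 11 of the 21 belonged to Bckdha. Untrained type IIb library 1 had 2 of 10 members with at least 10 counts, and the other 11 libraries had 6 to 9. Of the 9 members tested, 6 were at 0 in at least 1 library, against 76.6% of all genes tested and 50.9% of the 4601 genes with a mean of 10 FPKM or more. Fewer cells of a type and less RNA per cell cannot be told apart in such values. The median coefficient of variation of the members within a group was 65.7% in trained type I, 19.3% in untrained type I, 68.3% in trained type IIb and 115% in untrained type IIb libraries. Over genes with a group mean of 10 FPKM or more it was 73.6%, 40.3%, 79.2% and 83.9% in the same 4 groups, and over all genes tested with a group mean above 0 it was 107%, 59.5%, 123% and 125%. The members' median thus lay below both of these in trained type I, untrained type I and trained type IIb. In untrained type IIb it lay above the first and below the second. Untrained type I, with the smallest spread, was also the group with the most genes detected (9711 to 14428). Its libraries 1 and 3 had the highest endothelial marker sums, at 747 and 504 CPM, and its library 3 the highest fibroblast sum, at 10520 CPM. Its library 2 was at only 17.1 and 27.3 CPM for the 2 marker sets. The part of gene detection or of these markers in the member values was not tested beyond leaving out libraries. Summed over the 10 members, FPKM was 451, 509 and 517 in trained type I, 483, 326 and 370 in untrained type I, 272, 264 and 455 in trained type IIb and 140, 293 and 240 in untrained type IIb libraries.

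**Figure D4:**
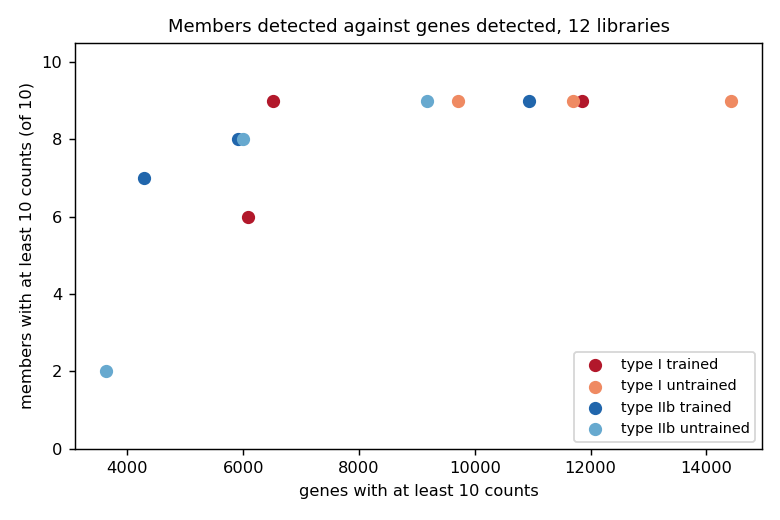
Members with at least 10 counts (y axis, of 10) against all genes with at least 10 counts (x axis), 1 point for each of the 12 libraries, coloured by group. Untrained type IIb library 1 stands alone at 2 members and 3636 genes, and all 3 untrained type I libraries have 9 members.

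Of 17 further enzymes and regulators of the pathway in the table, 16 were tested. In the 7 comparisons 0 of them passed edgeR's test in either direction, where 0% to 1.93% of all genes passed. The 3 with the highest mean FPKM were Mcee, methylmalonyl-CoA epimerase, Dld, and Acat1, the mitochondrial acetoacetyl-CoA thiolase that closes the isoleucine branch. Acat1 was at 386.4, 329.9 and 304.1 FPKM in trained type I and at 282.7, 284.8 and 247.2 FPKM in untrained type I libraries. It was at 6.16, 124.2 and 160.8 FPKM in trained type IIb and at 55.4, 141.6 and 90.0 FPKM in untrained type IIb libraries. All 6 type I values lay above all 6 type IIb values, as for 3.4% of genes, and they overlapped after TMM scaling. The log2 difference averaged over training was 1.24 ± 0.57 (adjusted p = 0.268 by edgeR). Mcee averaged 463 ± 227 FPKM in trained type I, 367 ± 99.9 in untrained type I, 187 ± 122 in trained type IIb and 188 ± 156 in untrained type IIb (SD, n = 3 each). Dld averaged 363 ± 208, 184 ± 7.68, 189 ± 66.1 and 309 ± 208 FPKM in the same 4 groups. All 3 trained type I values of Dld, 199.7 to 597.2 FPKM, exceeded those of untrained type I, 176.1 to 191.5 FPKM, as for 2.53% of genes, with a log2 difference of 1.43 ± 0.63 and an adjusted p of 1.00 by edgeR.

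The complex is switched off by the kinase Bckdk and on by the phosphatase Ppm1k, which are given here outside the naming rule and after their values were seen. Bckdk was at 3.31, 1.24 and 27.3 FPKM in trained type I and at 88.7, 52.0 and 31.4 FPKM in untrained type I libraries. It was at 0.147, 57.4 and 82.3 FPKM in trained type IIb and at 0, 46.7 and 19.7 FPKM in untrained type IIb libraries. The type I groups did not overlap, as for 8.2% of genes in this direction, and the log2 difference of -2.56 ± 1.91 had an adjusted p of 1.00 by edgeR. Ppm1k averaged 29.3 ± 26.1, 24.4 ± 8.76, 9.47 ± 8.22 and 8.36 ± 8.11 FPKM in trained type I, untrained type I, trained type IIb and untrained type IIb (SD, n = 3 each).

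Of 7 amino acid transporters, 6 were tested and 0 were called in any comparison, where 0% to 1.93% of all genes were. Slc38a2, a sodium-coupled carrier of small neutral amino acids, averaged 43.4 ± 43.6 FPKM in trained type I, 62.3 ± 36.0 in untrained type I, 16.4 ± 12.9 in trained type IIb and 28.6 ± 13.4 in untrained type IIb (SD, n = 3 each). Slc3a2, the heavy chain of the large neutral amino acid exchanger, averaged 6.36 ± 11.01, 32.7 ± 16.9, 5.41 ± 9.29 and 32.5 ± 29.1 FPKM in the same groups. Slc43a2, a facilitated carrier of large neutral amino acids, averaged 15.7 ± 20.6, 34.0 ± 18.4, 0.208 ± 0.360 and 1.98 ± 3.42 FPKM. Its log2 difference between type I and type IIb averaged over training was 4.55 ± 1.87 (adjusted p = 0.209 by edgeR).

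Among 7 genes that handle the amino group after transamination, 1 was called, Gpt2, the mitochondrial alanine aminotransferase. Gpt2 was at 50.1, 0.0567 and 9.40 FPKM in trained type I and at 6.41, 3.10 and 4.82 FPKM in untrained type I libraries. It was at 90.8, 197.6 and 144.1 FPKM in trained type IIb and at 167.9, 155.7 and 162.7 FPKM in untrained type IIb libraries. All 6 type I values lay below all 6 type IIb values, a separation 0.749% of genes showed. Averaged over training, Gpt2 was lower in type I by a log2 difference of -4.37 ± 0.91 (adjusted p = 0.0135 by edgeR), where 0.826% of genes were called lower. The call held in all 12 fits that left out 1 library, with adjusted p-values of 0.000927 to 0.0463 by edgeR. It was lost without the 3 libraries with the highest endothelial marker sums, at a log2 difference of -4.69 and an adjusted p of 0.216. Those are untrained type I libraries 1 and 3 and trained type IIb library 3. Within trained and within untrained fibres the adjusted p was 0.595 and 0.0926. The aminotransferases Got1 and Got2 and the glutamine synthetase Glul were not called. Glul averaged 80.2 ± 22.8 FPKM in trained type I, 68.1 ± 7.52 in untrained type I, 136 ± 95.8 in trained type IIb and 145 ± 15.2 in untrained type IIb (SD, n = 3 each), with a log2 difference of -1.39 ± 0.51 averaged over training (adjusted p = 0.138 by edgeR). Got1 averaged 367 ± 234, 316 ± 92.5, 172 ± 173 and 192 ± 30.0 FPKM, and Got2 155 ± 61.8, 266 ± 17.5, 108 ± 113 and 105 ± 89.4 FPKM, in the same groups.

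Klf15 is itself induced by glucocorticoids, so 10 genes of glucocorticoid signalling, the receptor gene Nr3c1 among them, were set beside it, and 1 was called. Tsc22d3, a leucine-zipper protein that glucocorticoids induce, was at 103.2, 62.9 and 31.8 FPKM in trained type I and at 83.3, 47.6 and 106.7 FPKM in untrained type I libraries. It was at 484.9, 166.7 and 205.5 FPKM in trained type IIb and at 211.5, 218.1 and 177.1 FPKM in untrained type IIb libraries. All type I values lay below all type IIb values, as for 0.749% of genes, the reverse of the order of the Klf15 means. The list as a whole was mixed. For type I minus type IIb averaged over training, 6 of its 10 genes had a positive and 4 a negative estimate. Averaged over training, Tsc22d3 was lower in type I by a log2 difference of -2.12 ± 0.47 (adjusted p = 0.0228 by edgeR), where 0.826% of genes were called lower. The call was lost in 5 of the 12 fits that left out 1 library, namely untrained type I libraries 1, 2 and 3, untrained type IIb library 2 and trained type IIb library 1, with adjusted p-values up to 0.0811. It was also lost under 6 of 10 other settings, among them DESeq2 at an adjusted p of 0.0623 and the fit without the 3 libraries of highest endothelial sums at 0.213. The log2 difference itself stayed between -2.42 and -1.81 over the libraries left out and between -2.54 and -1.75 over the other settings. The 3 genes of highest mean included Pdk4, the kinase that restrains pyruvate oxidation, and the metallothionein Mt1. Pdk4 was at 556.8, 41.1 and 1054 FPKM in trained type I and at 345.4, 174.1 and 284.1 FPKM in untrained type I libraries. It was at 63.7, 3.76 and 28.4 FPKM in trained type IIb and at 0, 36.9 and 23.3 FPKM in untrained type IIb libraries. The ranges met only because trained type I library 2, at 41.1 FPKM, lay below trained type IIb library 1, at 63.7 FPKM. The log2 difference averaged over training was 3.35 ± 1.06 (adjusted p = 0.103 by edgeR). Mt1 averaged 319 ± 225 FPKM in trained type I, 515 ± 145 in untrained type I, 22.7 ± 28.1 in trained type IIb and 155 ± 196 in untrained type IIb (SD, n = 3 each).

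**Figure D5:**
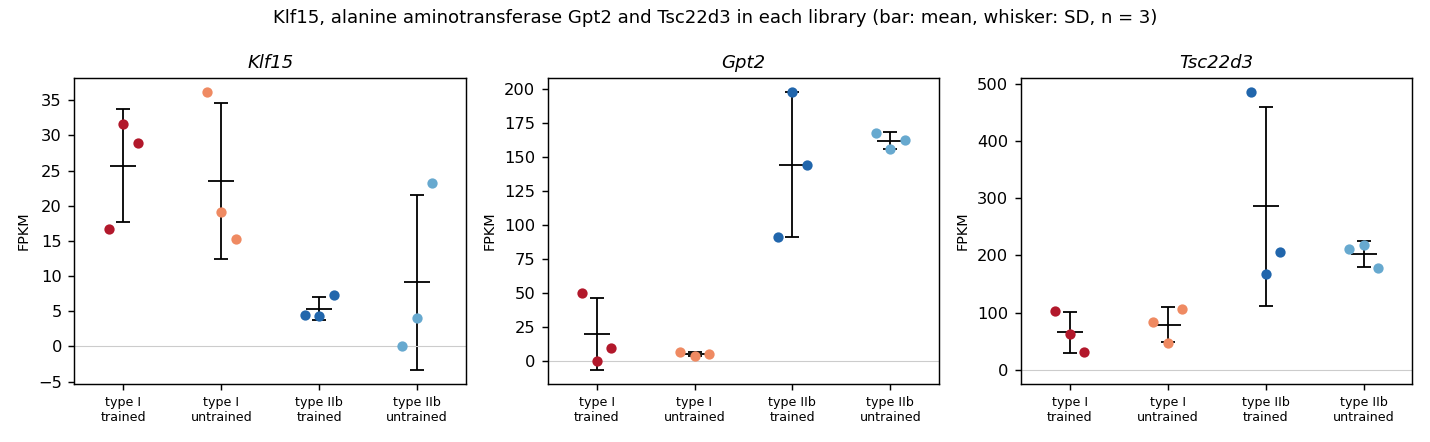
FPKM (y axis) of Klf15, Gpt2 and Tsc22d3 in each library (points), with the 4 groups on the x axis, a bar at the mean and whiskers of 1 SD (n = 3). Klf15 is higher in trained type I than in trained type IIb libraries, and Gpt2 and Tsc22d3 are lower in all 6 type I libraries than in all 6 type IIb libraries.

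The promoter windows of Bcat2, Bckdhb and Ivd are shown because these 3 members were separated between untrained fibre types on the FPKM scale. They are RefSeq sequences of GRCm38.p6, 250 bases before to 50 after the first listed start, at chr7:45569903-45570202, chr9:83924887-83925186 and chr2:118861744-118862043, all on the plus strand. Capitals mark CACCC, the core of the boxes that Krüppel-like factors are known to bind, or its complement GGGTG.
Bcat2: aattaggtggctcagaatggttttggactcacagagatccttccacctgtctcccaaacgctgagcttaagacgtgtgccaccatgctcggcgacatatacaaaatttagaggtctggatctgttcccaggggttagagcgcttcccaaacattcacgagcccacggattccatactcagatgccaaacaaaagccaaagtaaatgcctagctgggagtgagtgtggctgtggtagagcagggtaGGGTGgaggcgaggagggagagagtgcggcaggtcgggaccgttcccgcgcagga
Bckdhb: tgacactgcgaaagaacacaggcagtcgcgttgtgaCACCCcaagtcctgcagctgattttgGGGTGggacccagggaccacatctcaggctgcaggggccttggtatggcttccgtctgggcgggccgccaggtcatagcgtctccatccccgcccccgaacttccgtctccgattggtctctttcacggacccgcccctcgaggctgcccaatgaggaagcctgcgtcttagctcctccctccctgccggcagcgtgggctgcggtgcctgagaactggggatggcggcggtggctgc
Ivd: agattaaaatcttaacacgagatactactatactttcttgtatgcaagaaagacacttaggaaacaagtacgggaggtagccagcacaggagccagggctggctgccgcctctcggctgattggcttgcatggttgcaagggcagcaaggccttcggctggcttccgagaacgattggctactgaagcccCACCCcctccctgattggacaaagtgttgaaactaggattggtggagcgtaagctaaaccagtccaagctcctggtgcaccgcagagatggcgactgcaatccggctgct
An entry was found for 9 of the 10 members. CACCC on either strand occurred in the first window of 8 of those 9, and in 57.5% of all 32851 promoters of the same length. Those 9 members had 11 windows, and the second windows of Bcat2 and Bckdhb held no CACCC. Member counts here take the first window of each gene, while the shares over all 32851 promoters take every listed window. The GC box GGGCGG, searched on both strands, occurred in 5 of 9 and in 35.7% of all promoters. The oestrogen-related receptor pattern TNAAGGTCA, also on both strands, occurred in 0 of 9 and in 1.28% of all promoters. The motifs were compared as letters only, and GC boxes may abut or overlap CACCC.

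Across the 12 libraries, on log2(CPM + 1), the members varied in how alike they were. Over 36 pairs of tested members Pearson's r ranged from -0.642 for Acadsb with Dbt to 0.815 for Ivd with Dbt, with a median of 0.332. Klf15 and Bcat2, a regulator and its known target, had r of 0.329. The genes most like Klf15 were Twf2 (r = 0.938), Yap1 (0.921) and Bhlhe40 (0.920). Those most like Bcat2 were Afg3l2 (0.981), Tmem87b (0.979) and Thrap3 (0.972), and those most like Ivd were Aars (0.961), Nsd1 (0.950) and Ppp1r12b (0.950). Spearman's rho for these most alike pairs ran from 0.664 for Ivd with Ppp1r12b to 0.944 for Ivd with Aars. For Bcat2 with Afg3l2 it was 0.684. These are descriptions over the same 12 libraries, which also share depth and the number of genes detected, and they were picked as the highest among the genes tested.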

How the data were processed

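RNA sequencing of 12 myofibre libraries was re-analysed from the deposited tables. Per the labels, complementary DNA was made with the SMART-Seq HT kit and the libraries with Nextera XT, a kit without strand information. Per the submitters' processing notes, TopHat2 and the mouse build mm10 were used. Which version, counter and annotation were used is not given in the labels or notes at hand. The deposited counts are whole reads per gene, not normalised. The deposited FPKM values were scaled by the authors to gene length and library total. They equalled count over length and total within 0.1% for 94.5% of non-zero values, and differed by at most 0.362%. Coordinates are mm10, as in the deposited tables.

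Counts were filtered (filterByExpr), scaled by TMM and fitted in R 4.3.3 with edgeR 4.0.16 (robust quasi-likelihood test), 1 mean per group over all 12 libraries. Benjamini-Hochberg adjustment ran over all 11747 genes tested, and calls needed an adjusted p under 0.05. Standard errors were derived from the F statistics. The 7 comparisons were training in each fibre type, fibre type in each training state, their interaction and both averages. Levels are given in FPKM, and fold changes come from TMM-scaled counts, so the 2 scales can differ. TMM factors ran between 0.686 and 1.62. Member fold changes of 1 or more in log2 are given, 24 of 63 in all. Intervals for values of 0 cover counting error only.

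The genes named were all members, and from each further list those called plus the 3 with the highest mean FPKM. Bcat1, Bckdk and Ppm1k were named outside this rule after their values were seen. For Klf15, Bcat2 and Ivd, the member of highest mean FPKM, the 3 genes most alike by Pearson's r were also named. The members and lists were chosen with earlier results of these data known. The alternatives were RLE size factors, no filter, DESeq2 1.42.0, limma 3.58.1 (voom with quality weights, and log2(FPKM + 1) or log2(FPKM + 0.1)), no robust prior, a replicate block and leaving out each library. Leaving out the 3 libraries with the highest endothelial marker sums, or the 2 with the fewest genes, and the overlap of groups on TMM-scaled counts were added after seeing the data. On simulated data 200 of 11747 genes were changed by 4 in log2, and 10837 genes passed the filter. The fit for fibre type averaged over training recovered 42, or 24.1% of the changed genes that passed. All 42 were in the right direction, and there were 6 false calls.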

Additional observations from a re-analysis of the deposited data

How the results depend on the processing

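The count of members called was 0 in every comparison under every alternative but 1. That was limma-voom with quality weights in untrained fibres, which called 1 member, Bcat2. Of 1386 member estimates under alternatives, 116 had the other sign and 1 was called. Among the fold changes given, that of Bckdhb for training turned to -3.26 in type IIb and -1.12 averaged over fibre type under limma-voom with quality weights, and to -0.56 in type IIb without the 2 libraries with the fewest genes. The Klf15 interaction turned to -0.16 on log2(FPKM + 1) and to -1.145 on log2(FPKM + 0.1), and ran between -0.99 and 1.70 when single libraries were left out. The causes were not tested.

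Counts over all genes depended more on the tool. DESeq2 called 281, 1061 and 1055 genes for fibre type in trained, untrained and both kinds of fibre, against 63, 54 and 227 by edgeR, and 1008 of its 1061 in untrained fibres were higher in type I against 30 of 54. Limma-voom with quality weights called 159, 1859 and 1064, and limma on log2(FPKM + 1) 106, 342 and 600. Leaving out single libraries gave 29 to 77, 22 to 63 and 119 to 220. RLE size factors moved the median of all genes by 0.32 in log2 for fibre type in untrained fibres, -0.33 for the interaction, -0.29 for training in type I, -0.14 for averaged training and 0.13 for averaged fibre type, and turned none of the fold changes given.

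Whether equal replicate numbers mark paired libraries could not be decided here. Over 18 same-numbered pairs the correlation of deviations from the group means was -0.126 to 0.177. Of 12 libraries, 5 correlated best with their own number. Pairs with different numbers spanned -0.174 to 0.189, so both kinds of pair looked alike. The same-numbered pairs include trained with untrained libraries, which came from different mice. With the replicate block, 0 members were called, and 41, 42 and 138 genes for fibre type in trained, untrained and both kinds of fibre. The Bcat2 difference between untrained fibre types was 6.503 with the block. With 3 libraries a group, differences well above 1 in log2 could be missed. Member SEs ran from 0.625, for Acadsb between fibre types averaged over training, to 3.38, for the Bcat2 interaction. In the simulated data even changes of 4 were recovered for only 24.1% of the changed genes that passed the filter.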
